A study of Mus musculus with 6 samples.

Results

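The transcripts of 10 enzymes that hydroxylate or crosslink collagen were compared in the heart ventricle of western diet (WD)-fed mice given Tributyrin or vehicle. They are the lysyl oxidases *Lox*, *Loxl1*, *Loxl2*, *Loxl3* and *Loxl4*, the lysyl hydroxylases *Plod1*, *Plod2* and *Plod3*, and the prolyl 4-hydroxylase α subunits *P4ha1* and *P4ha2*. They were chosen by name, and these 10 genes are part of the 54232 genes in each count file. All animals were WT C57BL/6J mice on WD for 15 weeks before treatment, and 3 were needle-fed Tributyrin, a triglyceride of butyrate, and 3 vehicle, which the sample labels call PBS. WD + vehicle mice are therefore the control here, and no lean group was analysed here. *Loxl2* is one of the genes that the study picked out on these same mice, so its values here are a description and not independent evidence.

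Collagen chains are hydroxylated in the endoplasmic reticulum before they fold. Prolyl 4-hydroxylase, built of an α subunit with *P4hb* as its partner, makes the hydroxyproline that keeps the triple helix stable at body temperature, and the lysyl hydroxylases make the hydroxylysine that carries sugars and later takes part in crosslinks. Outside the cell, the copper-dependent lysyl oxidases convert lysine and hydroxylysine side chains of collagen and elastin to aldehydes, which then form covalent crosslinks. Both classes of hydroxylase need oxygen, iron, 2-oxoglutarate and ascorbate. In the heart most fibrillar collagen is made by fibroblasts, and crosslinked collagen is known as a determinant of the stiffness of the ventricle.

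The deposited read counts summed to between 20369746 and 32734485 per library. Levels are given as CPM, read counts relative to the library size after TMM scaling, so that libraries of different depth can be compared. Mitochondrial transcripts took 23.6% to 26.5% of counts with vehicle and 25.9% to 28.8% with Tributyrin. Cardiomyocyte markers summed to between 48940 and 53230 CPM and atrial cardiomyocyte markers to between 31.04 and 182.0 CPM. *Ddx3y*, on the Y chromosome, was at 68.4 to 85.5 CPM and *Xist* at 0.24 CPM or less in all 6 libraries.

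All 10 enzymes were expressed in every library, at between 19 counts for *Loxl4* and 3110 counts for *Plod1*, and all 10 passed the filter on low counts. Per length of exonic sequence, *P4ha1* was the highest at 12.9 CPM per kb, followed by *Loxl1* at 12.6 and *Plod1* at 12.2, whose ranges over the 6 mice overlapped. *P4ha2* came next at 6.93 CPM per kb, *Plod3* at 5.40 and *Plod2* at 4.75, each overlapping its neighbour in this order. *Loxl2* was at 2.08 CPM per kb, below every value of *Plod2* and above every value of *Lox*. *Lox* at 0.97 and *Loxl3* at 0.89 CPM per kb overlapped, and *Loxl4* was lowest at 0.28. *Loxl1* made up 73.2% to 76.8% of the summed lysyl oxidase level per length in each mouse. *Loxl2* made up 9.93% to 14.5% of it. *Plod1* made up 51.1% to 56.8% of the lysyl hydroxylase level, and *P4ha1* 62.8% to 68.2% of the level of the pair of α subunits.

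**Figure D1:**
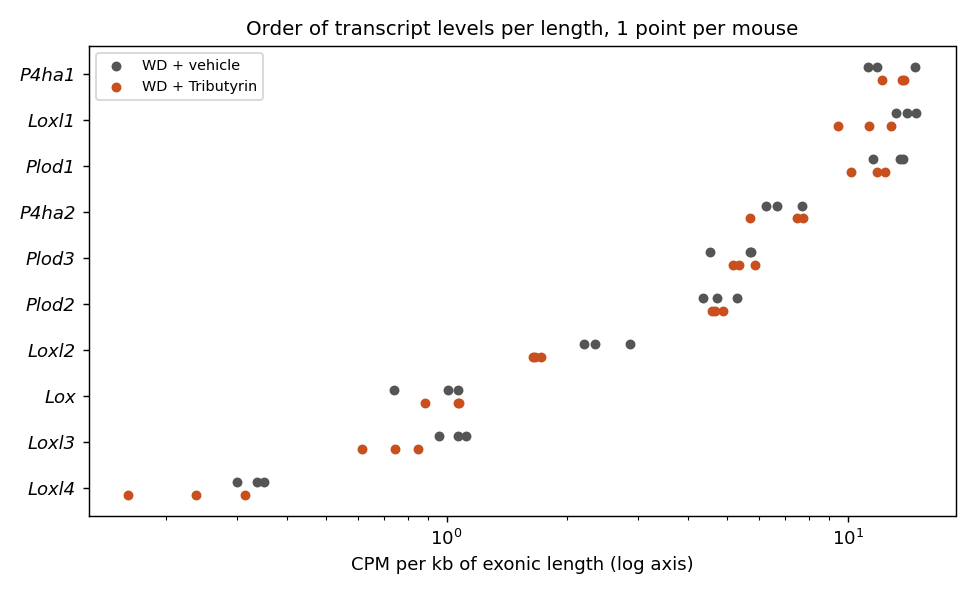
Transcript level of each enzyme in CPM per kb of exonic length on a log axis, 1 point per mouse, grey for WD + vehicle and orange for WD + Tributyrin. *P4ha1*, *Loxl1* and *Plod1* lie together at the top and *Loxl4* at the bottom. For *Loxl1*, *Loxl2* and *Loxl3* the mice given Tributyrin lie to the left of those given vehicle.

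To ask whether Tributyrin was associated with a different level of these enzymes, the groups were compared with edgeR's quasi-likelihood test over 14133 genes. After adjustment by Benjamini-Hochberg 0 genes passed a false discovery rate (FDR) of 10%, which is 0.0% of those tested, and so 0 of the 10 enzymes did. DESeq2 called 11 genes at that threshold and limma-voom 0, and none of the 10 enzymes was among them. Without the filter on low counts edgeR called 167 genes, *Loxl2* among them with an adjusted p of 0.00559. With the filter, 600 genes (4.25%) had an unadjusted p under 0.05, and the groups did not overlap for 8.94% of genes. The lysyl oxidases *Loxl1*, *Loxl2* and *Loxl3*, were below that value and lower with Tributyrin, 3 of 10 enzymes against 2.28% of all genes tested. They are also the 3 enzymes whose groups did not overlap with the Tributyrin mice lower, which held for 4.61% of all genes tested. None of the 10 enzymes was past an unadjusted p of 0.05 in the higher direction, against 1.97% of all genes, and none was higher without overlap, against 4.34%. Of the 10 enzymes, 6 had a log2 fold change below 0, against 50.4% of all genes. The median log2 fold change, Tributyrin over vehicle, was -0.47 over the 5 lysyl oxidases, -0.03 over the 3 lysyl hydroxylases and 0.04 over the α subunits, where the median of all genes tested was -0.00129. With only 10 genes, chosen with earlier results of these data known, these counts describe the list and give no test of it. The RNA is from whole tissue, so that fewer cells of a type and less RNA per cell cannot be told apart.

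**Figure D2:**
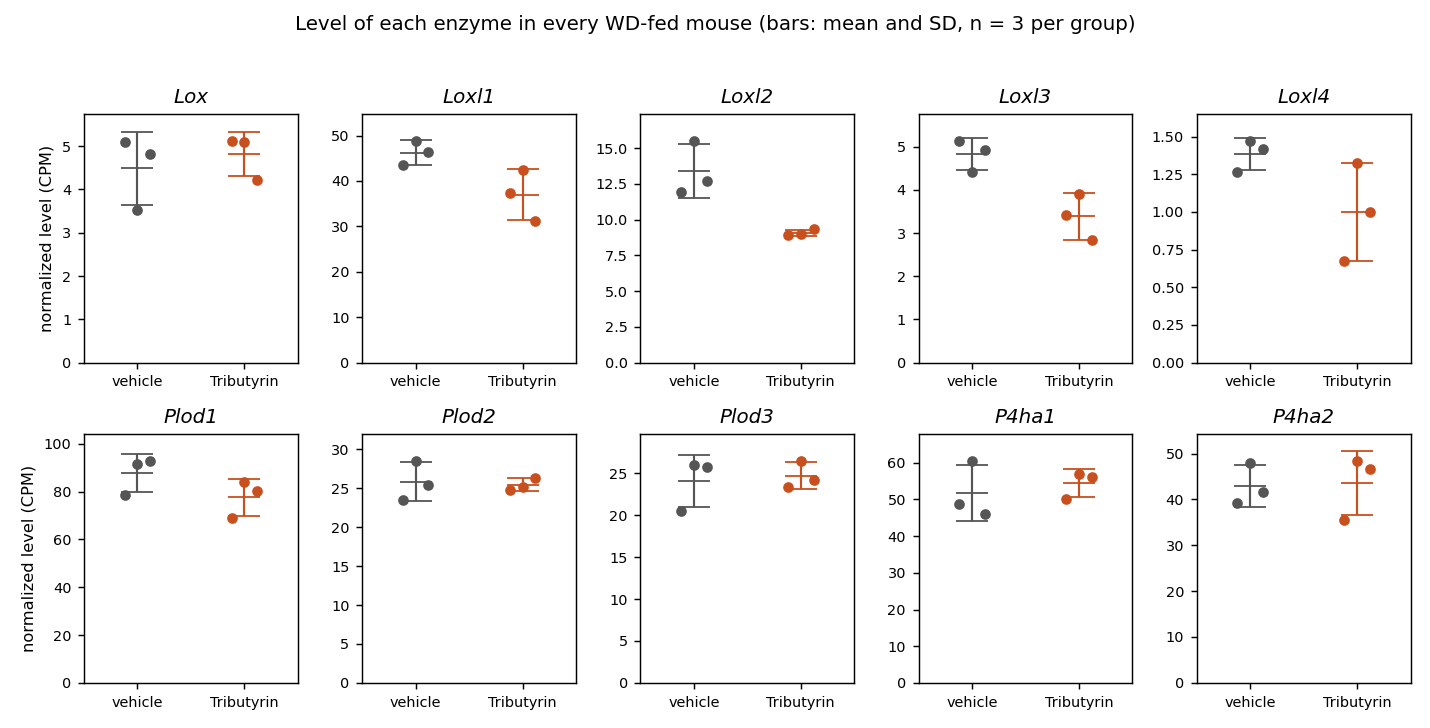
Normalized level of each enzyme in CPM in the 3 mice per group, with the group mean and SD as bars. The Tributyrin points lie below all vehicle points for *Loxl1*, *Loxl2* and *Loxl3* and overlap them for the other 7 enzymes.

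*Loxl2* encodes a secreted lysyl oxidase with scavenger receptor domains that acts on collagen IV and fibrillar collagens. It is ENSMUSG00000034205 in the files, a protein-coding gene on the plus strand of chromosome 14, from 69609068 to 69695834 in GRCm38, with 5405 exonic bases. *Gm27177*, on the opposite strand, shares 301 of these bases and had 0 counts in every library. The vehicle mice were at 11.9, 15.5 and 12.7 CPM and the Tributyrin mice at 8.90, 8.996 and 9.31 CPM. Every Tributyrin mouse was below every vehicle mouse, the Tributyrin mice lay close together, and vehicle replicate 2 stood above the other vehicle mice. The mean was 13.4 ± 1.89 CPM (SD, n = 3) with vehicle and 9.07 ± 0.22 CPM (SD, n = 3) with Tributyrin, a difference of -32.2%. The smallest count behind these values was 214, for which counting error alone is 6.84%. The log2 fold change was -0.57 (standard error 0.121), with an unadjusted p of 0.000793 at rank 8 of the genes tested and an adjusted p of 0.999 in edgeR's quasi-likelihood test. Without vehicle replicate 2 it was -0.44, and over all mice left out in turn it stayed between -0.64 and -0.44 with an unadjusted p of at most 0.00407.

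*Loxl1* encodes the lysyl oxidase best known for its role with elastin, and has the highest level per length of its family here. It is ENSMUSG00000032334, found on chromosome 9, minus strand, between 58287738 and 58313186. Vehicle mice were at 43.5, 48.9 and 46.4 CPM and Tributyrin mice at 37.3, 42.4 and 31.2 CPM. The groups did not overlap, but Tributyrin replicate 2 lay just below vehicle replicate 1, the lowest of its group. The log2 fold change was -0.32 (standard error 0.108, unadjusted p 0.0135, adjusted p 0.999 in edgeR's quasi-likelihood test). It was -0.21 without Tributyrin replicate 3 and -0.43 without Tributyrin replicate 2. Without vehicle replicate 2 its unadjusted p was 0.0532.

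*Loxl3*, a close relative of *Loxl2*, is ENSMUSG00000000693, on the plus strand of chromosome 6 from 83034173 to 83052562. Vehicle mice were at 5.14, 4.42 and 4.92 CPM and Tributyrin mice at 3.42, 3.91 and 2.83 CPM. All Tributyrin mice were lower, though these values rest on 65 to 150 counts and counting error alone is 12.4% at the lowest. The log2 fold change was -0.50 (standard error 0.166, unadjusted p 0.0123, adjusted p 0.999 in edgeR's quasi-likelihood test). *Loxl3* shares 535 exonic bases with *Htra2* on the opposite strand, which had 296 to 490 counts and a log2 fold change of -0.20. The strand setting of the counting is not given in the sources used here, so the value of *Loxl3* is uncertain.

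*Loxl4* had the fewest counts, between 19 and 50 per library. Vehicle mice were at 1.265, 1.47 and 1.42 CPM and Tributyrin mice at 0.68, 1.325 and 1.001 CPM, and the groups overlapped through Tributyrin replicate 2. Its log2 fold change of -0.47 had a standard error of 0.294 and an unadjusted p of 0.141, and it ran from -0.74 without Tributyrin replicate 2 to -0.24 without Tributyrin replicate 1. Its unadjusted p was 0.0464 without Tributyrin replicate 2, and counting error alone is 22.9% at its lowest count. *Lox*, the founding member of the family, was at 5.10, 3.535 and 4.83 CPM with vehicle and 5.13, 5.09 and 4.22 CPM with Tributyrin. The groups overlapped, and vehicle replicate 2, the mouse with the highest *Loxl2*, had the lowest *Lox*. The log2 fold change of *Lox* was 0.12 (standard error 0.175), and it turned to -0.04 without vehicle replicate 2.

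Summed per length, the lysyl oxidase level was 18.8 ± 0.93 CPM per kb with vehicle and 14.9 ± 1.93 CPM per kb with Tributyrin (SD, n = 3). The sums were 17.9, 19.7 and 18.8 with vehicle and 14.9, 16.8 and 12.9 with Tributyrin, and did not overlap. Since *Loxl1* makes up most of this sum, it follows that gene. The share of *Loxl2* in the sum was 13.1% ± 1.24 with vehicle and 11.4% ± 1.75 with Tributyrin (SD, n = 3), and the mice of the groups overlapped in this share. The share of *Lox* was 5.97%, 3.75% and 5.36% with vehicle and 7.18%, 6.36% and 6.84% with Tributyrin. It was higher in every Tributyrin mouse, where *Lox* itself overlapped between the groups and the rest of the sum was lower. No background over all genes was taken for this share, and it is given as a description.

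Among the lysyl hydroxylases, *Plod1* acts mainly on lysines of the triple helix, *Plod2* on those of the telopeptides, and *Plod3* also adds sugars to hydroxylysine. *Plod1* was at 78.4, 91.6 and 92.8 CPM with vehicle and 69.1, 84.0 and 80.0 CPM with Tributyrin. Vehicle replicate 1 lay among the Tributyrin mice, and the log2 fold change was -0.17 (standard error 0.095, unadjusted p 0.0978). It was -0.0901 without Tributyrin replicate 1, and its unadjusted p was 0.0383 without vehicle replicate 1 and 0.0408 without Tributyrin replicate 2. *Plod2* was at 23.5, 28.5 and 25.5 CPM with vehicle and 24.7, 25.2 and 26.4 CPM with Tributyrin. The Tributyrin mice lay within the range of the vehicle mice, and the log2 fold change was -0.03 (standard error 0.091). *Plod3* was at 20.6, 26.0 and 25.7 CPM with vehicle and 23.4, 26.5 and 24.2 CPM with Tributyrin. Its groups overlapped too, and its log2 fold change of 0.04 (standard error 0.106) took the other sign when counts were scaled by library size alone. Within the summed lysyl hydroxylase level per length, the share of *Plod1* was 55.1% to 56.8% with vehicle and 51.1% to 54.1% with Tributyrin, and that of *Plod3* 22.2% to 23.6% and 24.3% to 25.9%. The groups did not overlap in either share, while the summed level and the levels of *Plod1* and *Plod3* themselves did overlap. Both shares are parts of the same sum and so are not separate observations. No background over all genes was taken for such shares, and they are given as a description. *Plod3* shares 529 exonic bases with *Znhit1* on the opposite strand, which had 500 to 956 counts. *Plod2* shares 346 with *Gm38391*, also on the opposite strand, which had 15 to 34 counts and a log2 fold change of 0.30.

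The prolyl 4-hydroxylase α subunits also overlapped between the groups. *P4ha1* was at 48.7, 60.5 and 46.2 CPM with vehicle and 50.2, 57.0 and 56.3 CPM with Tributyrin, at a log2 fold change of 0.07 (standard error 0.106). *P4ha2* was at 39.2, 48.0 and 41.5 CPM with vehicle and 35.6, 48.4 and 46.7 CPM with Tributyrin, at a log2 fold change of 0.02 (standard error 0.122). Both were just below 0 with library size alone. Vehicle replicate 2 was the highest vehicle mouse for both α subunits, for *Plod2* and *Plod3*, and for *Loxl1*, *Loxl2* and *Loxl4*.

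**Figure D3:**
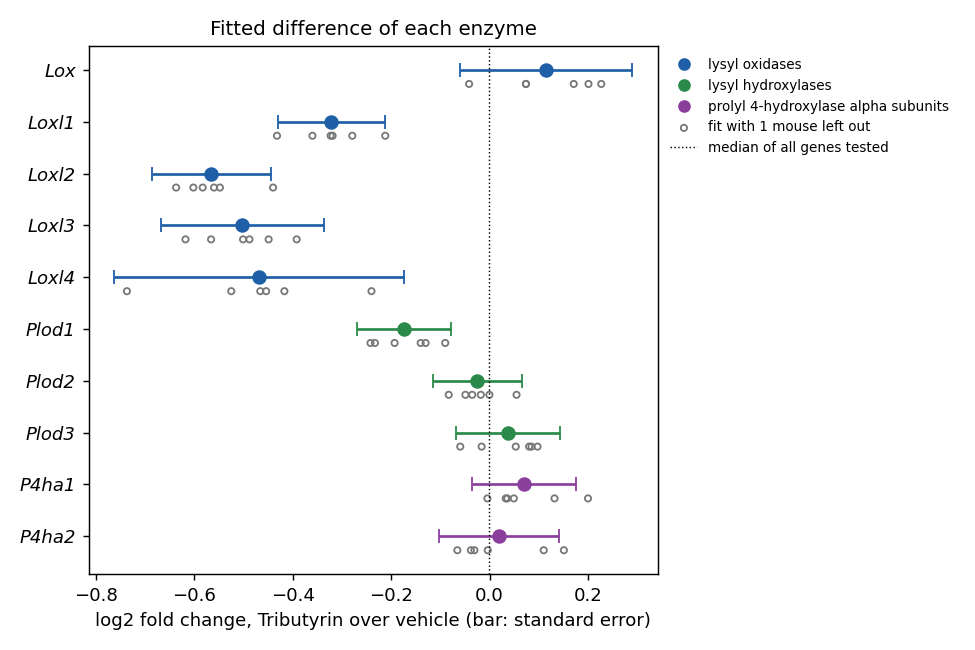
Log2 fold change of each enzyme, Tributyrin over vehicle, with its standard error as a bar, and as open circles the fits with 1 mouse left out. *Loxl1*, *Loxl2*, *Loxl3*, *Loxl4* and *Plod1* stayed below 0 in all 6 such fits, while *Lox*, *Plod2*, *Plod3*, *P4ha1* and *P4ha2* crossed 0.

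To compare *Loxl2* with its relatives directly, the log2 ratio of its counts to those of each other enzyme was taken within each library, which needs no scaling between libraries. The ratios did not overlap and were lower with Tributyrin for 6 of the 9 relatives, the 5 hydroxylases and *Lox*. The same held for 71.9% of all other genes tested, so this count is near the background and is not particular to these enzymes. All 9 ratios share the counts of *Loxl2*, and they are given as a description. With *Plod2* the ratio was -0.98, -0.88 and -1.0 in the vehicle mice and -1.47, -1.48 and -1.50 in the Tributyrin mice. This is a difference of -0.53 on the log2 scale (standard error 0.0395). The difference was -0.63 (standard error 0.0684) with *P4ha1*, -0.595 (standard error 0.104) with *Plod3*, -0.56 (standard error 0.132) with *P4ha2* and -0.38 (standard error 0.118) with *Plod1*. With *Lox* the difference was -0.66 (standard error 0.30). Each of these 6 ratios gave p = 0.1 in a two-sided exact permutation test, the smallest p that 3 mice against 3 allow, so the design cannot reach 0.05 for any of the 9 ratios. Against *Loxl1*, *Loxl3* and *Loxl4* the ratios of the groups overlapped. The difference was -0.22 (standard error 0.162, exact permutation p = 0.3) with *Loxl1*, -0.03 (standard error 0.234, p = 0.9) with *Loxl3* and -0.04 (standard error 0.28, p = 0.9) with *Loxl4*. With standard errors of this size, a larger or smaller difference in *Loxl2* than in these 3 relatives was not detectable.

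**Figure D4:**
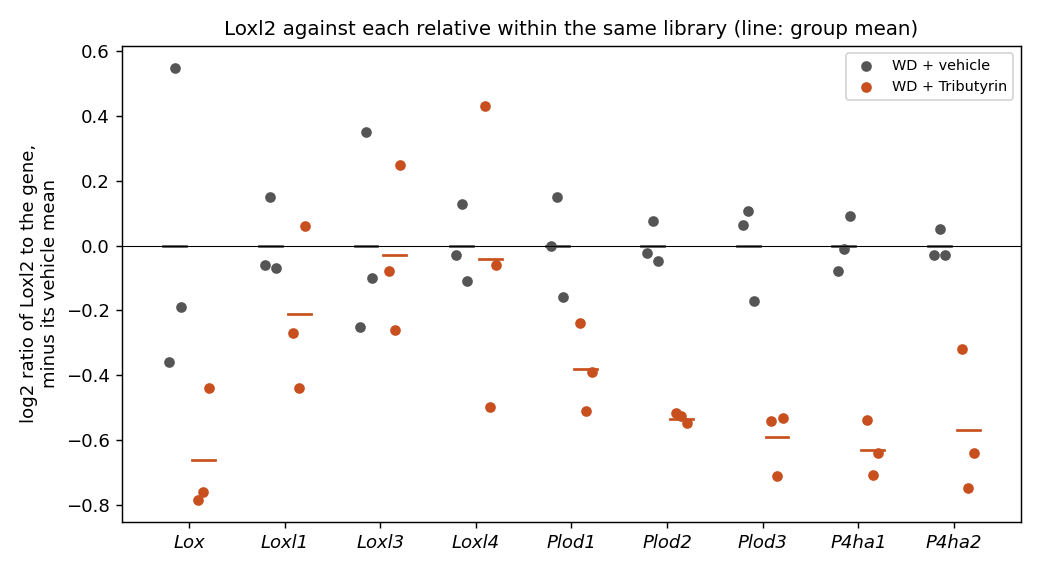
Log2 ratio of *Loxl2* to each other enzyme in the same library, minus the vehicle mean of that ratio, with 1 point per mouse and the group mean as a line. The Tributyrin points lie below all vehicle points for *Lox* and the 5 hydroxylases, and the groups overlap for *Loxl1*, *Loxl3* and *Loxl4*.

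The other genes of collagen modification were taken from lists of 38 genes, of which 37 were tested. At an unadjusted p under 0.05, 7 of them were lower and 0 higher with Tributyrin, against 2.28% and 1.97% of all genes tested, and edgeR's adjusted p left 0 of them past 10%. Without the filter on low counts, *Col1a1*, *Col5a1*, *Adamts2* and *Col5a2* were past 10%, as *Loxl2* was. The median log2 fold change of the 37 genes was -0.08. In the list of collagen hydroxylation, folding and glycosylation, 1 of 13 tested genes was lower at that value, *P3h2*, a prolyl 3-hydroxylase (log2 fold change -0.39, standard error 0.172), which was under it in 1 of the 6 fits with a mouse left out. *P4hb*, the partner of *P4ha1* and *P4ha2*, was at 0.02 (standard error 0.072). The collagen chaperone *Serpinh1* was at -0.01 (standard error 0.076). *P4ha3*, the remaining α subunit, had too few counts to be tested.

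Of the 9 genes of propeptide removal and other crosslinking, 2 were lower at an unadjusted p under 0.05, against 2.28% of all genes. *Adamts2*, a procollagen N-proteinase, was at 19.8, 28.2 and 25.4 CPM with vehicle and 15.8, 20.5 and 17.8 CPM with Tributyrin, and the log2 fold change was -0.44 (standard error 0.140). It was -0.32 without vehicle replicate 2 (unadjusted p 0.0561) and -0.0817 with the mitochondrial share as a covariate. In 5 of the 6 fits with a mouse left out, *Adamts2* was at an unadjusted p under 0.05. *Bmp1*, which removes the C-propeptide of collagen and also the propeptide of *Lox* and *Loxl1*, had a log2 fold change of -0.21 (standard error 0.079), and its groups did not overlap. Its unadjusted p was under 0.05 in 2 of the 6 fits with a mouse left out, over a range of -0.23 to -0.16. The transglutaminase *Tgm2* was at -0.07 (standard error 0.114). None of the 6 genes of copper supply and lysyl oxidase scaffolds passed that value in either direction, among them the copper transporter *Atp7a* at 0.04 (standard error 0.149) and *Fn1* at -0.32 (standard error 0.189).

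Of the 9 collagen and elastin substrates, 4 were lower at an unadjusted p under 0.05, against 2.28% of all genes. *Col1a1*, the main chain of collagen I, had a log2 fold change of -0.46, standard error 0.173, and the others had values of -0.40 (0.138) for *Col5a1*, -0.40 (0.158) for *Col5a2* and -0.26 (0.116) for *Col4a1*. Elastin, *Eln*, was at 0.14 (standard error 0.181). The groups overlapped for all 4 of these collagens, and in each Tributyrin replicate 2 was above vehicle replicate 1. *Col5a1* was at an unadjusted p under 0.05 in 4 of the 6 fits with a mouse left out, and *Col1a1*, *Col5a2* and *Col4a1* in 2 each. Of the 9 substrates, 7 were lower at that value without Tributyrin replicate 2, 6 without vehicle replicate 1, 1 without vehicle replicate 2 or without Tributyrin replicate 1, and 0 without vehicle replicate 3 or without Tributyrin replicate 3. The count over all 37 genes was lowest, at 1, when vehicle replicate 3 was left out and highest, at 12, when Tributyrin replicate 2 was, and the share of all genes tested that were lower at that value moved with it, from 1.52% to 4.85%. With the mitochondrial share as a covariate 0 of the 9 substrates were lower, their median log2 fold change was 0.055 in place of -0.305, and *Col1a1* (0.00121), *Col5a2* (0.055) and *Col4a1* (0.0107) were above 0.

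**Figure D5:**
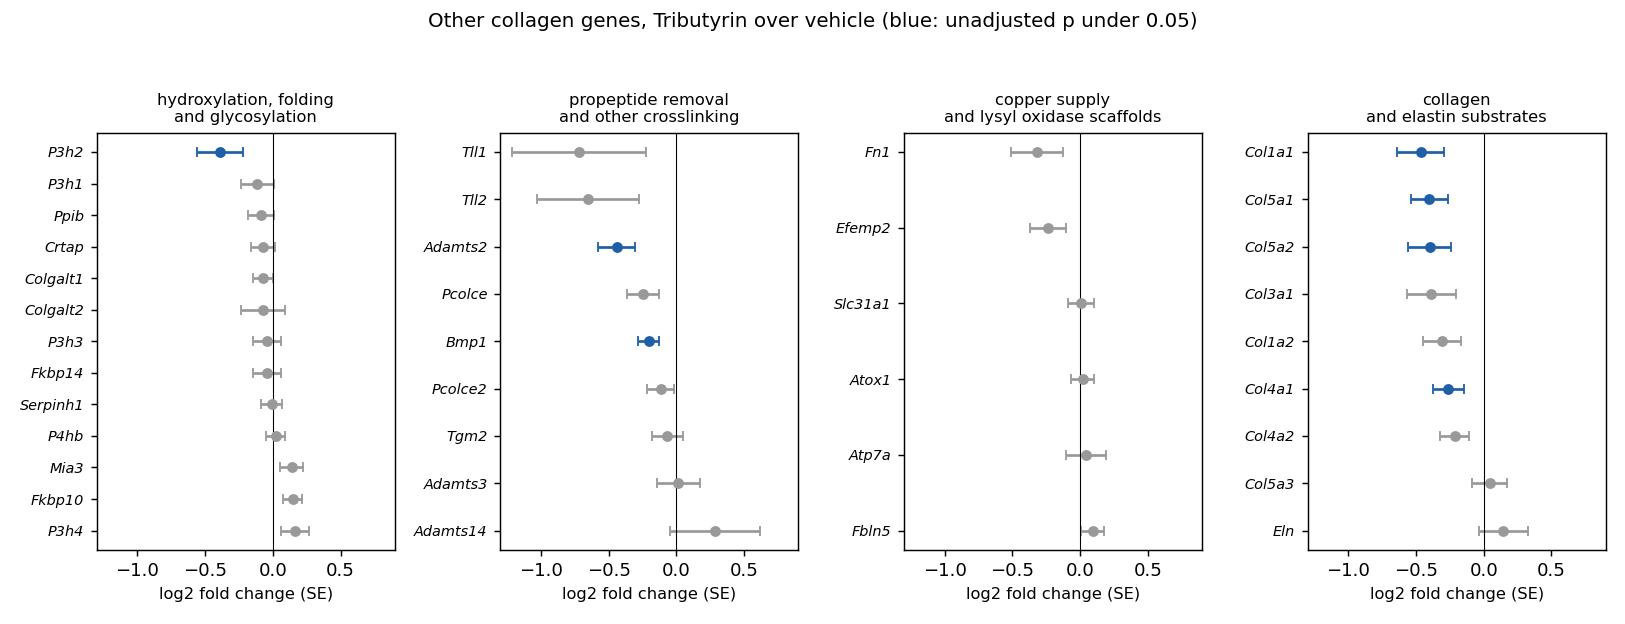
Log2 fold change with its standard error, Tributyrin over vehicle, for the other genes of collagen modification and the substrates, in blue where the unadjusted p was under 0.05. The 7 genes in blue all lie below 0, and 4 of them are collagens.

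Marker lists of the cell types in the ventricle were read in the same libraries. At an unadjusted p under 0.05, 2.28% of all genes tested were lower and 1.97% higher. Fibroblast markers summed to 2090 to 2194 CPM with vehicle and 1938 to 2379 CPM with Tributyrin. The sums overlapped, and the median log2 fold change of the 8 genes was -0.04. *Gsn* made up most of this sum, at a mean of 1435 CPM with vehicle and 1457 CPM with Tributyrin. *Lum* (-0.31) and *Mfap5* (-0.49) were lower at an unadjusted p under 0.05, and *Gsn* was at 0.02. *Lum* was under that p in 6 of the 6 fits with a mouse left out. *Mfap5* ran from -0.303 without vehicle replicate 2 to -0.675 without vehicle replicate 1, under that p in 3 of 6 such fits, and was at -0.0761 with the mitochondrial share as a covariate. Activated fibroblast markers summed to 47.4 to 80.6 CPM with vehicle and 31.8 to 52.9 CPM with Tributyrin, with all 5 tested genes below 0 and *Cilp* (-0.60) under that p, and *Postn* at -0.53. *Cilp* was at -0.268 without vehicle replicate 3 (unadjusted p 0.19) and at -0.114 with the mitochondrial share as a covariate, and its unadjusted p was 0.0583 with limma-voom and 0.0889 with the robust prior. It was under 0.05 in 4 of the 6 fits with a mouse left out. Smooth muscle and pericyte markers summed to 720.0 to 773.0 CPM with vehicle and 741.5 to 878.6 CPM with Tributyrin. *Rgs5* made up most of this sum, at a mean of 496.2 CPM with vehicle and 546.6 CPM with Tributyrin. The median log2 fold change of the 7 genes was 0.106, with 6 above 0 and 1, *Pdgfrb* (-0.19), below. *Myh11* (0.59) and *Cnn1* (0.71) were higher at an unadjusted p under 0.05, with *Rgs5* at 0.14. *Myh11* was at 0.352 without Tributyrin replicate 2. It was under that p in 6 of the 6 fits with a mouse left out, and *Cnn1* in 3 of the 6. In the list of cardiomyocyte markers *Tnnt2* (0.23) and *Tnni3* (0.21) were higher and *Actc1* (-0.21) lower, each under that p in at most 2 of 6 such fits, with *Myh6* at -0.08. Endothelial, epicardial, Schwann cell, macrophage and erythroid lists had 0 genes under that p, among them *Cdh5* (-0.03), *Upk3b* (-0.34), *C1qa* (-0.05) and *Hbb-bs* (0.13), and the sums of every marker list overlapped between the groups. The part of cell composition in the lower lysyl oxidase levels was not tested.

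Some properties of the libraries differed on average between the groups, though the groups overlapped in each. Atrial cardiomyocyte markers summed to 182.0, 172.5 and 53.8 CPM with vehicle and 31.04, 64.4 and 46.3 CPM with Tributyrin, so that vehicle replicates 1 and 2 stood apart. At an unadjusted p under 0.05, 4 of the 5 tested genes (*Sln*, *Myl7*, *Myl4* and *Mybphl*) were lower, against 2.28% of all genes tested. This count was 5 with no filter on low counts or with the replicate block, 1 with DESeq2, and 0 with limma-voom or the robust prior. It was 1 without vehicle replicate 1 and 1 without vehicle replicate 2. *Bmp10* had at most 1 count in a library. The sum of vehicle replicate 3 was in the range of the Tributyrin mice, with *Nppa* at 39.8 CPM, its highest level in any library. *Sln*, *Myl7*, *Myl4* and *Mybphl* were each lower in that mouse than in every Tributyrin mouse. The part of atrial tissue in the lower lysyl oxidase levels was not tested. A setting with the summed atrial markers as a covariate was added after the data were seen. In this edgeR fit the log2 fold change was -0.49 for *Loxl2* (unadjusted p 0.0292), -0.28 for *Loxl1* (0.124) and -0.475 for *Loxl3* (0.0956). With the mitochondrial share as a covariate, also added later, it was -0.42 for *Loxl2* (unadjusted p 0.0432), -0.07 for *Loxl1* (0.569) and -0.42 for *Loxl3* (0.118). *Plod1* was then at -0.00345. Under either covariate *Loxl2* was the only one of the 10 enzymes at an unadjusted p under 0.05, and 0 of the 37 other collagen genes were lower at that value, against 1.42% of all genes with the atrial and 1.05% with the mitochondrial covariate. With the atrial covariate the log2 fold changes were -0.398 for *Col5a1*, -0.397 for *Adamts2* and -0.365 for *Col1a1*, and with the mitochondrial covariate -0.0187, -0.0817 and 0.00121. With the latter 1 of the 37 genes, *Mia3*, was higher at an unadjusted p under 0.05. The mitochondrial share was higher on average with Tributyrin, so its part and that of the treatment cannot be told apart.

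Over the 6 libraries, the genes whose level followed that of *Loxl2* most closely among 12468 genes compared were *Lum*, a small leucine-rich proteoglycan (r = 0.99), *Adcy7*, an adenylyl cyclase (0.99), *Cd55*, a regulator of complement (0.99), *Ccn1*, a matricellular protein (0.99), and *Pcyox1*, prenylcysteine oxidase (0.98). They share with *Loxl2* the 6 libraries and the difference between groups, and 79 genes had r above 0.9. *Lum* was at 59.5, 69.6 and 63.1 CPM with vehicle and 49.9, 52.5 and 52.8 CPM with Tributyrin. As for *Loxl2*, vehicle replicate 2 was the highest mouse and the 3 Tributyrin mice lay together below the vehicle mice.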

How the data were processed

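Stranded mRNA libraries were made from heart ventricle of 3 WD + Tributyrin and 3 WD + vehicle mice. The deposited values are raw read counts per gene from htseq-count on STAR alignments, after the authors' read filtering, which included rRNA. The submitters' processing notes name cutadapt 1.13, HTSeq 0.6.1p1, DESeq2 1.14.1 and mm10. Strand setting and annotation release: not given in the sources used here. Gene names, positions and exonic lengths came from GENCODE M21 (GRCm38), which matched 54165 identifiers. No line without a gene was present (0 lines).

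Groups were compared with edgeR 4.0.16 (R 4.3.3), by its quasi-likelihood test with TMM scaling, filterByExpr (minimum count 10, minimum total 15), no covariate and Benjamini-Hochberg adjustment over 14133 genes. CPM are counts over the TMM-scaled library size. The study's FDR thresholds are 10% in its results and 5% in its methods. Within-library ratios had 0.5 added to each count and a two-sided exact permutation test (scipy 1.17.1). Likeness to *Loxl2* is Pearson's r of log2(CPM + 0.1) among tested genes with a mean CPM of at least 1. Labels give 1 library per numbered mouse. Deviations from the group means correlated between same-numbered samples at 0.214, 0.0375 and 0.0147, which was not read as a pairing.

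Alternatives were other scalings, filters, DESeq2 1.42.0, limma-voom (limma 3.58.1), a robust prior, the replicate block and each mouse left out. The steps were tested on simulated data. The genes named are the 10 enzymes, list genes with an unadjusted p under 0.05, each list's gene with the highest CPM, not per length, and the 5 genes most like *Loxl2*. *Serpinh1*, *Eln*, *Atp7a*, *P4ha3*, *Bmp10*, *Nppa*, *Pdgfrb*, *Mia3*, *Ddx3y* and *Xist* were named after their values were seen, as were overlapping genes. A gene that this rule names is not reported here. Members and lists were chosen with earlier results of these data known.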

Additional observations from a re-analysis of the deposited data

How the results depend on the processing

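Past an FDR of 10% there were 0 genes in the fit described, 167 with no filter on low counts, 11 with DESeq2 and 2 with the replicate block, and ran from 0 to 3 with each mouse left out. At an unadjusted p under 0.05 the count was 600, against 1178 with no filter, 367 with a mean CPM of at least 5, 375 with atrial transcripts and 334 with the mitochondrial share as a covariate, and 389 to 1360 with each mouse left out. Genes whose groups do not overlap numbered 1264, and 2162 to 3857 with each mouse left out, as fewer mice separate more easily. *Loxl2* was past 10% with no filter (-0.563, adjusted p 0.00559), and over the other alternatives its adjusted p was not under 0.188. It stayed at a log2 fold change between -0.64 and -0.42. The call with no filter was not particular to *Loxl2*. In that edgeR fit *Col1a1* (adjusted p 0.000172), *Col5a1* (0.00808), *Adamts2* (0.0177) and *Col5a2* (0.0332) were past 10% too. *Loxl1*, *Loxl3*, *Loxl4* and *Plod1* were below 0 in every alternative run. Scaled by library size alone, which moved the median of all genes to -0.0736, *Plod3* was at -0.0366, *P4ha1* at -0.00296 and *P4ha2* at -0.0551. With the mitochondrial share as a covariate *Plod2* was at 0.0715, *Col1a1* at 0.00121, *Col5a2* at 0.055, *Col4a1* at 0.0107 and *Tnnt2* at -0.00157, and with atrial transcripts *Plod3* was at -0.00691. With each mouse left out *Lox* ran from -0.0416 to 0.227, *Plod2* from -0.083 to 0.0548, *Plod3* from -0.0596 to 0.0974, *P4ha1* from -0.00446 to 0.20 and *P4ha2* from -0.0655 to 0.151. The difference in the ratio of *Loxl2* to *Loxl3* ran from -0.173 to 0.142 and that to *Loxl4* from -0.278 to 0.19, above 0 without vehicle replicate 2 and without Tributyrin replicate 2. The replicate block gave 4 enzymes under an unadjusted p of 0.05, *Plod1* added to *Loxl1*, *Loxl2* and *Loxl3*, against 2.9% of all genes lower at that value, with *Loxl2* at -0.557. The count was also 4 with library size alone (4.94% of all genes) and without vehicle replicate 1 (2.62%), 5 without Tributyrin replicate 2 (4.85%) and 2 without vehicle replicate 2 (1.71%). The causes were not tested. The filter at a mean CPM of 5 leaves out *Lox*, *Loxl3* and *Loxl4*, and both covariates were chosen later, with the data known. Counts were fewest for *Loxl4*, *Loxl3* and *Lox*.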
